A study of Mus musculus with 504 samples.

Results

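Pools of 5 cells that were sorted as EpCAM-negative from mammary tumours of mice with the alleles MMTV-PyMT, Tnc-CreERT2, MMTV-Flpo and RC::FrePe were compared between a GFP-positive gate, P15 (GFP high, mCherry negative), and an mCherry-positive gate, P05 (mCherry high, GFP negative). They were taken by 3 labels: the line of the animal, the population, and a mark that the library passed the submitters' quality control. These labels gave 44 of the 504 samples of the series, 12 pools of P15 from 3 animals and 32 pools of P05 from 5 animals. Animal TENA2483 gave 6 P15 and 10 P05 pools, TENA2517 gave 5 and 3, and TENA2524 gave 1 and 5, while TENA2462 (6 pools) and TENA2560 (8 pools) gave P05 only. All animals carried the same 4 alleles, and each was given tamoxifen (2 mg, in 2 doses per week) between week 9 and collection of its tumours in week 13 or 14, so that no untreated animal and no animal without the oncogene enters the comparison.

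In these mice the polyoma middle T antigen, driven by the MMTV promoter in mammary epithelium, gives rise to tumours, and a Flp recombinase under the same promoter turns on mCherry. A Cre that is active only with tamoxifen, and is made where the Tnc promoter is on, then switches a cell and its descendants from mCherry to GFP, so GFP records that the Tnc promoter was once active and says nothing of its present state. In an epithelial-to-mesenchymal transition (EMT), epithelial cells lose junction proteins, keratins and EpCAM and take up the cytoskeleton, matrix and migratory genes of mesenchymal cells, and repressors such as the ZEB and SNAI factors bind E-boxes in the promoters of epithelial genes. EpCAM-negative cells are therefore where fully mesenchymal tumour cells are looked for, and the same gate also admits leukocytes, fibroblasts and vessel cells if they carry or appear to carry the colour. The comparison asks how cells with and without a history of Tnc promoter activity differ once EpCAM is off the surface.

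The promoters of 3 genes, Plet1, Wfdc18 and Spint2, are shown because these were among the epithelial genes that fell in P15, as described further on, and because their windows hold a motif that was searched. The window of Cldn3, another such gene, held none of the 4 motifs searched and is not shown. Each run is the 250 bases before the RefSeq start of the gene, 5′ to 3′ on the strand of the gene, on GRCm38.p6. Capitals mark a TATA box (TATAAA) or the E-box of the ZEB and SNAI repressors (CAGGTG). The Plet1 window is chr9:50494275-50494524 on the plus strand, the Wfdc18 window is chr11:83708754-83709003 on the plus strand, and the Spint2 window is chr7:29281978-29282227 on the minus strand.
Plet1: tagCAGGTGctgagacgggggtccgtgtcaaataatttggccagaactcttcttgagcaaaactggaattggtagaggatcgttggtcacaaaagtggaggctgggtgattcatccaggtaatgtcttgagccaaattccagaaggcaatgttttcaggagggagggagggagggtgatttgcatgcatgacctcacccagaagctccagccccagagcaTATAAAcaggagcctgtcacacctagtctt
Wfdc18: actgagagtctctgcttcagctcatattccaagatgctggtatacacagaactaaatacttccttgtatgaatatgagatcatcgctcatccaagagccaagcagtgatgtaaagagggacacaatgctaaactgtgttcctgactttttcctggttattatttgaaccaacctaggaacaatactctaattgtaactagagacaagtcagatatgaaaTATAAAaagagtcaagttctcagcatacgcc
Spint2: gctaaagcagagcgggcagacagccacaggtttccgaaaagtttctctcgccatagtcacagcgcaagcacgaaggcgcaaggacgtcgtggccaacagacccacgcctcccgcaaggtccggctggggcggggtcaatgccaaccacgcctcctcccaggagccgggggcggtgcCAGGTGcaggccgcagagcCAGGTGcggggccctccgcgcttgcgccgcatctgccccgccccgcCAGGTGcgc
In the Plet1 window the TATA box begins 30 bases and the E-box 247 bases before the start. The Wfdc18 window holds a TATA box 31 bases before the start and no E-box. The Spint2 window holds 3 E-boxes, 74, 55 and 9 bases before the start, and no TATA box. Promoters were matched for 26 of the 41 genes that fell. TATAAA, searched on both strands, was found in 6 of these 26 (BC006965, Nqo1, Plet1, Tgfb2, Tspan12 and Wfdc18) and in 13% of all 27025 promoters of that length. CAGGTG, also on both strands, was found in 5 of the 26 (Emid1, Kif21a, Lurap1l, Plet1 and Spint2) and in 17.1% of all promoters. The ETS motif CCGGAAG was found in 3 (Bet1, Emid1 and Zfp560) against 7.05% of all, and the NFI motif (TTGGC, 5 bases of any kind and GCCAA) in 0 against 0.0407% of all. The matches describe these windows only.

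The values are raw counts of reads per gene, shown as CPM, counts scaled to a total of 1000000. For pools and for summed marker levels the total is the plain one, while for the level of a gene in an animal's sum it was first scaled by edgeR's TMM factor. The single P15 pool of TENA2524 therefore has 2 values for a gene, such as 12370 CPM of Apoe as a pool and 10100 CPM as a sum. Totals per pool ranged from 508631 to 7293999 counts in P15 and from 1046829 to 6752810 in P05, and the median pool held 7327 and 7587 genes with a count. The only P15 pool of TENA2524 is also the shallowest of the 44, and the pools of that animal were sequenced in lane 2 while the others were in lane 1. A further 11 P15 and 28 P05 pools failed quality control and entered only an alternative. The Smart-seq2 protocol has no molecular identifiers, so floors and counting intervals cover counting error only. With 3 counts as the floor, a gene with 0 counts over all P15 pools lies below 0.0664 CPM, and over all P05 pools below 0.0249 CPM.

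The pools themselves were looked at before any test, counting a pool as holding a gene at 10 CPM or more. Ptprc, the pan-leukocyte phosphatase CD45, was held by 12 of 12 P15 pools, from 11.8 CPM in the pool of TENA2524 to 528 CPM in TENA2517. In P05 it was held by 7 of 32 pools, 4 from TENA2483, 1 from TENA2517 and 2 from TENA2524. Every P15 pool thus carried leukocyte RNA, and most P05 pools did not reach 10 CPM of Ptprc. Other leukocyte genes were less one-sided, with Csf1r held by 8 of 12 P15 and 13 of 32 P05 pools. Cd74 was held by 11 and 13, and C1qb by 5 and 12. Some P05 pools without Ptprc thus held leukocyte genes, such as 1 of TENA2560 with Lyz2 at 9477 CPM and Csf1r at 488 CPM. Krt8, the keratin of simple epithelia, was held by 0 of 12 P15 and 10 of 32 P05 pools, and Epcam, Krt8 or Cdh1 by 3 and 15. Col1a1, the main fibrillar collagen chain, was held by 1 of 12 and 16 of 32. These counts go against reading P15 as epithelial or mesenchymal tumour cells alone, and the population is called by its gate here.

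The leukocyte RNA of P15 differed in kind between the animals. In TENA2483 all 6 P15 pools held the B cell genes Cd79a (139 to 1020 CPM), part of the B cell receptor complex, and Ms4a1 (13.5 to 724 CPM), which encodes CD20. Neither gene was held by a P15 pool of the other animals. In TENA2517 all 5 P15 pools held C1qa, the complement subunit made by tissue macrophages, at 368 to 6356 CPM, and 0 of the 7 P15 pools of the other animals did. The 8 macrophage markers summed to 335, 8621 and 3806 CPM in the P15 sums of TENA2483, TENA2517 and TENA2524, and to between 20.0 and 3372 CPM in P05. Ccr7, the homing receptor of mature dendritic cells and lymphocytes, was held by 5 of the 6 pools of TENA2483, and Siglech, of plasmacytoid dendritic cells, by 2 pools of TENA2517, up to 1550 CPM. The markers of T or NK cells summed to at most 2.55 CPM in P15 and 0 in P05, and those of mast cells to 0 in P15.

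The pool of TENA2524 stood apart from the other P15 pools. It held Csf1r, the receptor for colony stimulating factor 1, at 1583 CPM, Apoe at 12370 CPM and Fcer1g at 2178 CPM, without Cd74 or C1qa, together with Acta2 (1876 CPM), Tagln (655 CPM) and Dcn (427 CPM), which are genes of smooth muscle and fibroblasts. Epcam and Krt18 were each at 142 CPM in it. One pool of TENA2483 was the only P15 pool to hold Col1a1, at 483 CPM. It also held Tnc (267.5 CPM), Spp1 (42200 CPM), Mmp13 (13010 CPM) and Inhba (1617 CPM) beside Ptprc.

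P05 pools were mixed in another way. Of the 32, 11 held Col1a1 alone among Krt8, Col1a1 and Ptprc, 4 held Krt8 alone, 4 Ptprc alone, 4 Krt8 and Col1a1, 2 Krt8 and Ptprc, 1 Col1a1 and Ptprc, and 6 none of these genes. All 7 P05 pools with Ptprc also held C1qa, and 1 P05 pool held Cd79a. The 7 fibroblast markers summed to 12.8 CPM in the P05 sum of TENA2517 and to between 1346 and 13760 CPM in the other 4, against 606, 0.622 and 427 CPM in the P15 sums. Since the pools are sums over 5 cells, fewer cells of a type and less RNA per cell cannot be told apart in anything that follows. How far each result reflects these mixtures was not tested, except where values without the Ptprc or Krt8 pools of P05 are given. The P05 pools kept without Ptprc can still hold other leukocyte genes.

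**Figure D1:**
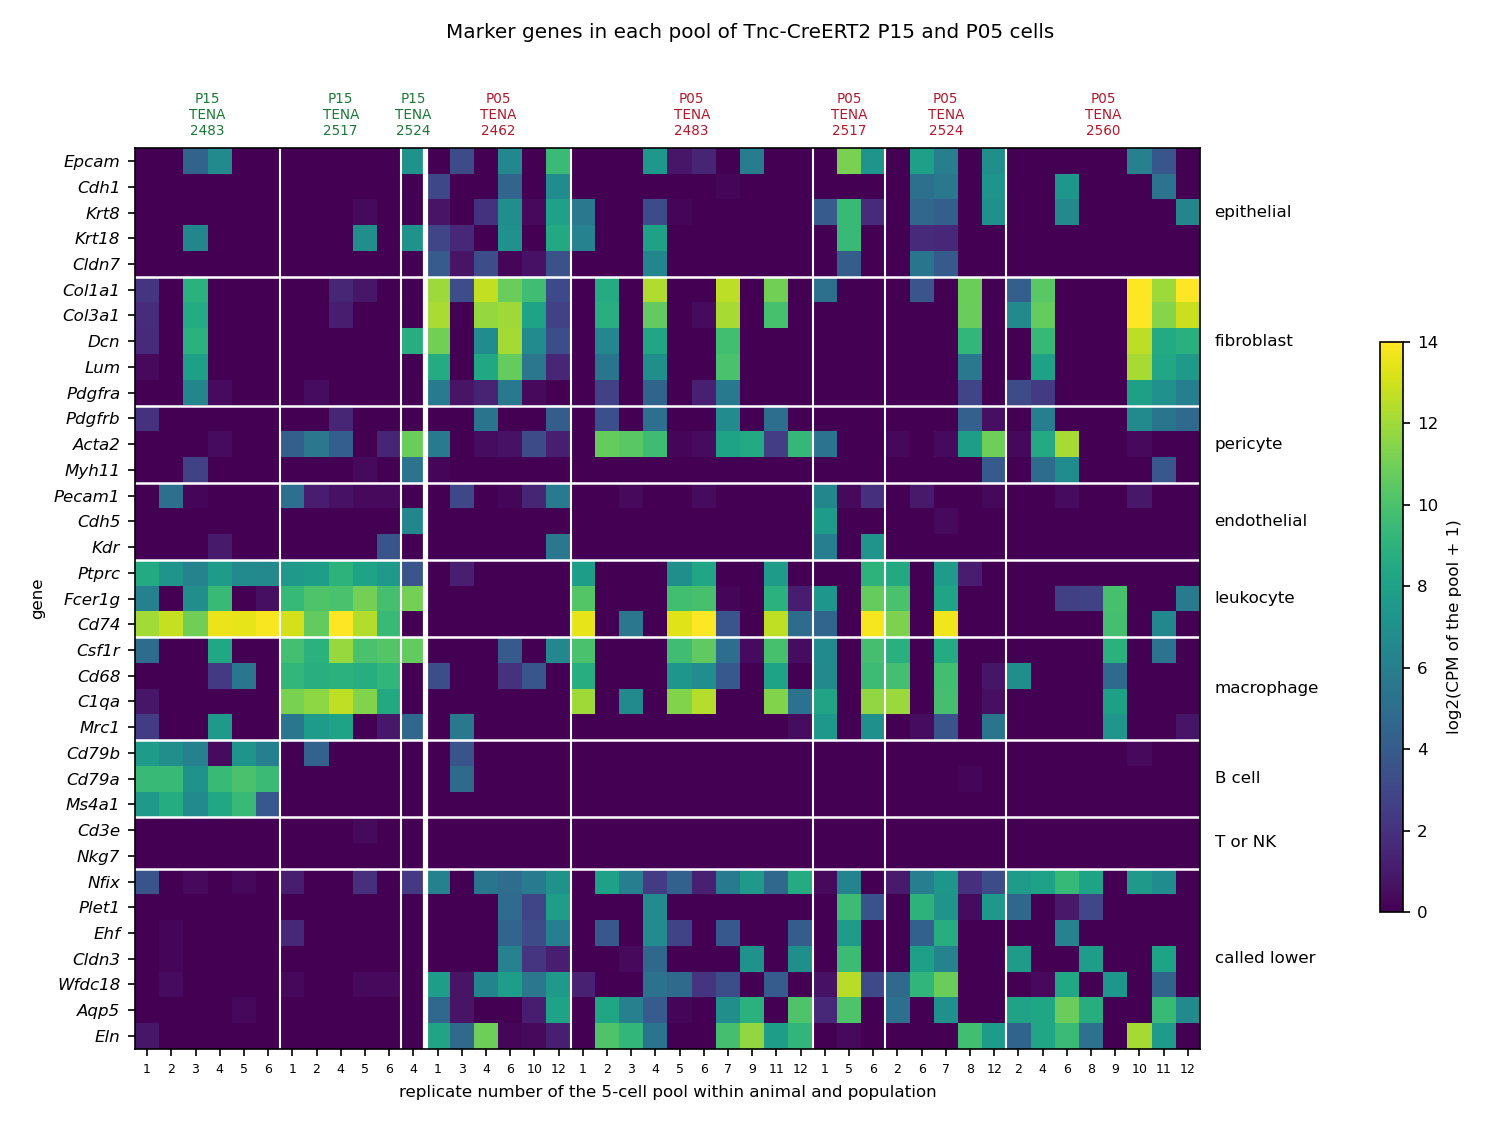
Heat map of 35 genes, cell type markers and genes that fell (rows), in the 12 P15 and 32 P05 pools (columns, grouped by animal), coloured by log2(CPM + 1). Ptprc is held in all 12 P15 pools and 7 P05 pools, Cd79a and Ms4a1 appear in all 6 P15 pools of TENA2483, and Col1a1 and Krt8 appear in 16 and 10 P05 pools.

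For the test, counts were summed per animal and population, and P15 was compared with P05 in edgeR's quasi-likelihood test with Benjamini-Hochberg adjustment, with the animal as a block. Of 33768 genes tested, 46 (0.136%) were called at an adjusted p below 0.05. In P15, 41 (0.121%) were lower and 5 (0.0148%) higher, a split of 89.1% lower that was 75.3% under another scaling (RLE, 61 lower and 20 higher). The median log2 difference over all genes was −0.58, so that lower values in P15 were common. Of the 41, 23 had 0 counts in all P15 pools and 7 had 1 to 3, 38 did not overlap between the groups (2.03% of all genes), and 40 were lower in 3 of 3 animals holding both populations (7.36% of all genes). Gstt3 was lower in 2 of the 3. In P05 the 41 genes were held by 6 to 32 pools (median 10), in all 5 animals for 28 genes and in 4 for 12. In P15, 34 were held by no pool.

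These calls rest on the joint fit and on animal TENA2524. Fitted on the P15 and P05 sums alone, edgeR's quasi-likelihood test called 0 genes (582 lower and 138 higher at an unadjusted p below 0.05), and without the Krt8 pools of P05 it also called 0 (1780 lower and 1512 higher). Leaving out those pools drops 10 of the 32 P05 pools and partly fixes the values of epithelial genes held with Krt8. Without TENA2524 it called 2 lower and 1 higher, of which 1, Nfix, was among the 46, and without the single P15 pool of that animal it called 18 lower (13 of the 41) and 1 higher. Of the 41 genes that fell, 11, 18, 21, 1 and 12 were called without TENA2462, TENA2483, TENA2517, TENA2524 and TENA2560, and of the 5 that rose 0, 4, 4, 0 and 0. Without the animal block it called 154 lower and 57 higher, which include all 46. Without TENA2524 the fitted log2 differences of 4 of these genes were −6.41 for Nfix, −6.89 for Ehf, −12.11 for Wfdc18 and −4.11 for Spint2, against −6.12, −7.67, −12.41 and −5.03 with it. In the genes below, a P15 level of 0 counts is given a bound, the log2 ratio of the floor of 3 counts over P15 to the P05 counts, and a gene with 1 to 3 counts is given the ratio of summed P15 to P05 counts per total, on the log2 scale, with a 95% interval.

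Nfix, a transcription factor of the nuclear factor I family at chr8:84699876-84800344, had the lowest p of all genes. Its level was 1.56, 0.977 and 3.21 CPM in the P15 sums of TENA2483, TENA2517 and TENA2524. P05 sums held 82.4 CPM in TENA2462, 138 in TENA2483, 27.4 in TENA2517, 101 in TENA2524 and 196 in TENA2560. The groups did not overlap, with means of 1.92 ± 1.16 (SD, n = 3) and 108.9 ± 63.0 CPM (SD, n = 5). It fell by 6.12 ± 0.83 (SE) on the log2 scale (edgeR, adjusted p = 0.00128), and it was the only gene of the 46 with an adjusted p below 0.05 without each of the 5 animals in turn (0.000472 to 0.02). It was held by 21 of 32 P05 pools, 12 of them with Col1a1, 9 with Epcam, Krt8 or Cdh1 and 3 with Ptprc, and by 1 P15 pool. Without the Krt8 pools of P05 its log2 difference was −5.70 (adjusted p = 0.18). Trmt1, a tRNA methyltransferase whose gene at chr8:84686307-84699808 ends beside the 3′ end of Nfix, fell by 8.39 ± 1.39 (adjusted p = 0.0051, 0.118 without TENA2524). Whether reads were assigned by strand is not given in the sources used here, so reads running past either gene could be shared.

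Genes of mammary epithelium were among the others that fell. Plet1, a surface protein of luminal progenitors and other epithelia (chr9:50494525-50505482), had 0 counts in the 3 P15 sums. The P05 sums held 42.3, 20.0, 268, 300.1 and 4.91 CPM in TENA2462, TENA2483, TENA2517, TENA2524 and TENA2560. All 5 P05 animals lay above all P15 animals, and the bound was −10.09 (edgeR, adjusted p = 0.00258, 0.0895 without TENA2524). It was held by 9 P05 pools, 8 of which held Epcam, Krt8 or Cdh1. Plet1os, annotated antisense across Plet1 (chr9:50488795-50507823), was called as well (bound −8.70, adjusted p = 0.00836, 0.139 without TENA2524), all 7 of its P05 pools held Epcam, Krt8 or Cdh1, and reads of the pair may be shared.

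Ehf, an epithelial ETS factor (chr2:103263433-103303278), was 0.0347, 0.586 and 0 CPM in P15. In P05 it was 19.9, 28.5, 73.5, 191 and 7.54 CPM in the same order of animals. The groups did not overlap, and Ehf fell by 7.67 ± 1.17 on the log2 scale (edgeR, adjusted p = 0.00258, 0.0895 without TENA2524), with 7 of its 10 P05 pools among those with Epcam, Krt8 or Cdh1. Without the Krt8 pools its difference was −3.96 (adjusted p = 0.464). Of its 10 P05 pools 6 held Krt8, so that leaving these out partly fixes this value. Spint2, a membrane inhibitor of matriptase and other serine proteases (chr7:29256323-29281912), was 9.88, 0.912 and 0 CPM in P15 and 38.3 to 297 CPM in P05. It fell by 5.03 ± 1.01 (adjusted p = 0.0277), and only without TENA2483 did the call hold among the fits without 1 animal (0.00436 against 0.0698 to 0.324). The 12 epithelial regulators listed include the matriptase gene St14 and the splicing factor gene Esrp1. Of these 12, 2 were called lower (0.121% of all genes), 0 higher (0.0148% of all genes), and 8 had 0 counts in P15. Over all 33768 genes tested, 13229 had 0 counts in P15 and 20654 lay below 0, so these counts describe the lists without setting them apart. The median was −9.35 (−6.01 with bounds), 10 had an unadjusted p below 0.05 (7.11% of all genes were so lower), and St14 was 0, 0.456 and 0 CPM in P15 against 0.654 to 133 in P05.

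Cldn3, a tight junction claudin (chr5:134986214-134987472), had 1 count in P15, in TENA2483. Its P05 levels were 34.7, 33.0, 265, 115 and 91.3 CPM in the order above. No P15 sum reached the lowest of these, and the ratio of pooled counts was −11.66 (95% interval −16.97 to −9.19, edgeR adjusted p = 0.00486, 0.132 without TENA2524). Of the 12 junction genes, 1 was called (0.121% of all genes were called lower) and the median was −6.14. Among the 12, 11 lay below 0 and 4 had 0 counts in P15. Of all 33768 genes tested, 20654 lay below 0 and 13229 had 0 counts in P15. Cldn7, at 0 against 0 to 21.3 CPM, had an adjusted p of 0.0797. Epcam, the gene of the surface protein gated on, was 15.9, 0 and 116 CPM in P15 and 9.00 to 821 CPM in P05. The groups overlapped (−1.79 ± 1.32, edgeR adjusted p = 0.713). Epcam was held by 3 of 12 P15 and 11 of 32 P05 pools, at up to 142 and 2301 CPM. Jup, the plakoglobin that leukocytes and stroma can also express, was 50.8, 50.9 and 276 CPM in P15 and 53.3 to 240 CPM in P05, with a log2 difference of 0.20 ± 0.62.

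Of the 8 keratins listed, 0 were held in 8 of 12 P15 pools and in 20 of 32 P05 pools. Krt8 had 1 count in P15 and 87.7, 5.42, 238, 51.5 and 13.2 CPM in P05, where the groups did not overlap (ratio −10.88, adjusted p = 0.0827). Krt18, its partner in simple epithelia, was 21.3, 29.3 and 116 CPM in P15 and 0 to 235 in P05, with a difference of 0.60 ± 1.60. In all, 0 of the 8 keratins were called, and their median of −5.89 became 0.62 without the Krt8 pools of P05, which the rule for leaving out those pools partly fixes.

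Wfdc18, a secreted whey acidic protein family member (chr11:83709015-83711348), had 5 counts in P15 in all, at 0.0693, 0.195 and 0 CPM. Levels in P05 were 248, 17.2, 1950, 1039 and 42.8 CPM. All 5 lay above the P15 sums, and it fell by 12.41 ± 2.03 (edgeR, adjusted p = 0.00486, 0.178 without TENA2524). It was held by 15 P05 pools, 8 with Epcam, Krt8 or Cdh1 and 8 with Col1a1. Csn3, the kappa-casein gene, was 37.7, 0.0651 and 0 CPM in P15 and 54.7 to 2286 CPM in P05, without overlap but not called (−6.29 ± 2.34, adjusted p = 0.316). Lcn2, a secreted iron carrier, was 46.1, 0.521 and 91.5 against 147 to 709 CPM (−3.71 ± 1.25, adjusted p = 0.263), and Muc15 was 0 against 8.07 to 125 CPM (bound −9.24, adjusted p = 0.079). Of the 11 milk and luminal secretion genes 1 was called (0.121% of all genes were called lower) and 4 did not overlap (2.03% of all). In P15, 8 of them had 0 counts, as did 13229 of all 33768 genes tested. The caseins Csn1s1, Csn1s2a and Csn2 were at or near 0 in both gates.

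Aqp5, the water channel of secretory epithelia, had 1 count in P15 and 43.9, 268, 394, 67.3 and 395 CPM in P05. The groups did not overlap (ratio −13.17, 95% interval −18.48 to −10.70, adjusted p = 0.0214), and 17 P05 pools held it, 8 of them with Epcam, Krt8 or Cdh1. Its adjusted p was 0.042 to 0.204 across the fits without 1 animal, and below 0.05 only without TENA2483. Plekhb1 had 0 counts in P15 and 35.8 to 98.7 CPM in P05 (bound −9.81, adjusted p = 0.00411). Pgp, a phosphoglycolate phosphatase, had 1 count against 28.2 to 130 CPM (ratio −11.36, 95% interval −16.66 to −8.88, adjusted p = 0.00258). Cracr2b, a regulator of store-operated calcium entry, was 0 in P15 and 17.6 to 23.5 CPM in 4 P05 sums, but 0.133 CPM in TENA2560 (bound −7.36, adjusted p = 0.00258). Without TENA2524 these 3 had adjusted p-values of 0.0895, 0.0948 and 0.0895. The other genes that fell are known for varied roles, among them the kinesin Kif21a (ratio −8.26, 95% interval −11.31 to −6.41, adjusted p = 0.0109), the channel regulator Tcaf1 (bound −8.61, adjusted p = 0.0171), the vesicle SNARE Bet1 (bound −8.14, adjusted p = 0.02), 1810043G02Rik (bound −8.29, adjusted p = 0.02) and the actin-linked adaptor Sorbs2 (ratio −10.19, adjusted p = 0.0209). Their adjusted p-values without TENA2524 were 0.178, 0.102, 0.178, 0.18 and 0.204. Of the 41 genes, 26 had more than 50% of the P05 pools that held them among the 15 pools with Epcam, Krt8 or Cdh1, which are 46.9% of P05 pools. The same count was not made over all genes tested, so it does not set the 41 apart.

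**Figure D2:**
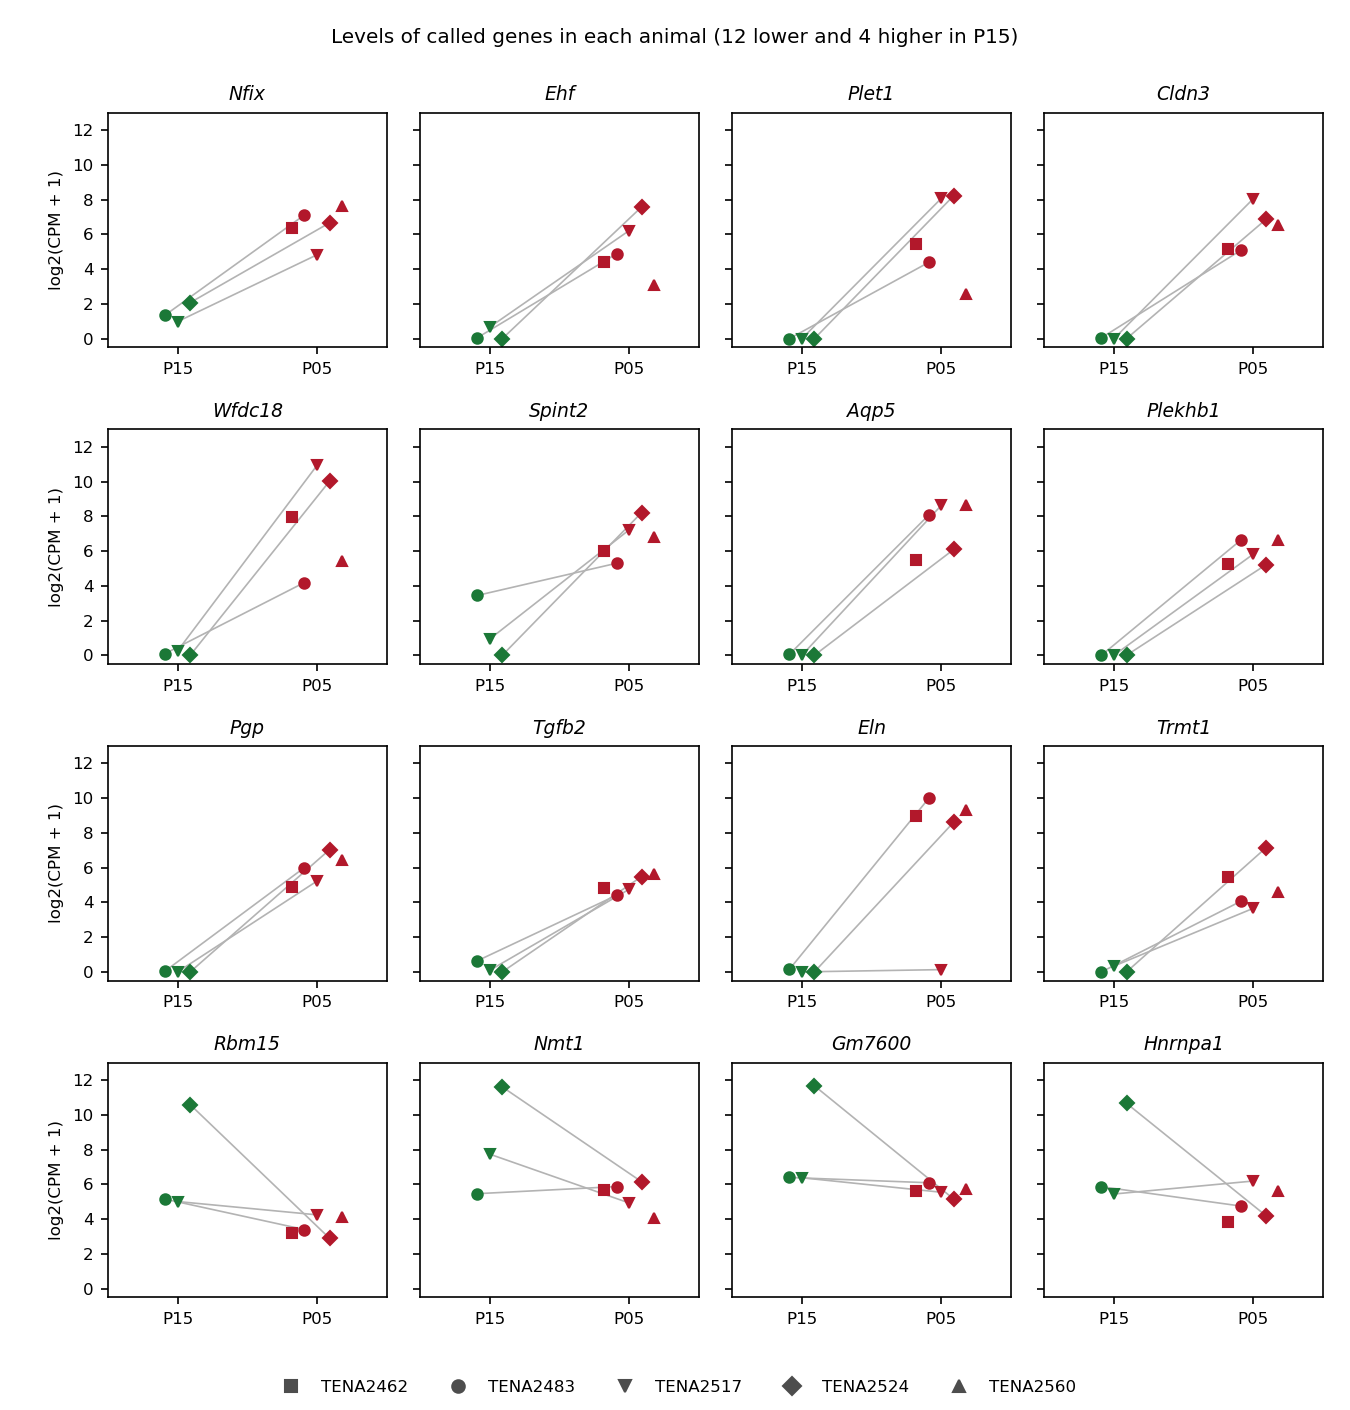
Level of 12 genes that fell and 4 that rose in P15, as log2(CPM + 1) of each animal's sum (P15, 3 animals; P05, 5 animals), with lines joining the populations of 1 animal. For Nfix, Ehf, Plet1, Cldn3 and Wfdc18 all P15 sums lie below all P05 sums, while the P15 sum of TENA2524 stands far above the rest for Rbm15, Nmt1, Gm7600 and Hnrnpa1.

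Eln and Tgfb2, which mesenchymal cells express, fell as well. Eln, which encodes tropoelastin (chr5:134702593-134747323), had 3 counts in P15, at 0.104 CPM in TENA2483 and 0 in the others. In P05 it was 496, 1013, 0.0947, 393 and 644 CPM, so that the P05 sum of TENA2517 lay within the P15 range and the groups overlapped. It was held by 18 P05 pools, 11 with Col1a1 and 6 with Epcam, Krt8 or Cdh1. Its adjusted p was 0.0565 to 0.204 without each animal in turn, and the call was lost in each of these fits. Tgfb2, a ligand of the transforming growth factor beta family (chr1:186622792-186705989), was 0.554, 0.0651 and 0 CPM in P15. It was 26.9, 20.2, 26.0, 44.0 and 48.1 CPM in P05, without overlap, and fell by 6.78 ± 1.42 (edgeR, adjusted p = 0.0417, and 0.00538 to 0.333 without 1 animal, below 0.05 only without TENA2483). It was held by 12 P05 pools, 9 of them with Col1a1 and 8 with Epcam, Krt8 or Cdh1.

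Of the 12 genes of the TGF-beta pathway Tgfb2 was the 1 called (0.121% of all genes were called lower). Among the 12, 11 lay below 0, as did 20654 of all 33768 genes tested. Their median was −1.54, against −0.58 for all genes. Tgfb1, another ligand, was 0.173 to 5.47 CPM in P15 and 0.115 to 8.93 in P05. Tgfb3 was 0.0347, 63.0 and 0 against 16.2 to 67.5 CPM, and the receptor gene Tgfbr2 was 6.17, 130 and 127 against 103 to 316 CPM, both with overlap.

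The matrix genes listed beside Eln were mostly below 0 without being called. Of 15 elastic fibre and microfibril genes 15 lay below 0, as did 20654 of all 33768 genes tested. In all 3 paired animals 8 were lower (7.36% of all genes were), and the median of the list was −6.69. Only 1, Eln, was called (0.121% of all genes were called lower). The 3 latent TGF-beta binding proteins listed, which tie the growth factor to microfibrils, were the only members not overlapping between the gates. Of all genes, 2.03% were so lower. Ltbp1 was 1.07, 0 and 0 CPM against 2.08 to 167 CPM (−7.11 ± 1.80, adjusted p = 0.112), Ltbp2 was 0 against 2.59 to 71.4 CPM (bound −8.24) and Ltbp4 was at most 1.89 against 8.93 to 119 CPM. Mfap5, a microfibril glycoprotein of fibroblasts, was 0.243, 0 and 0 CPM in P15 and 3658, 663, 0, 378 and 470 CPM in P05 (−13.41 ± 3.47, adjusted p = 0.138). Of 12 collagen genes, 7 had an unadjusted p below 0.05 (7.11% of all genes were so lower) and 0 were called. Col1a1 was 123, 0.391 and 0 CPM against 4014, 2888, 11.2, 716 and 3531 CPM (−5.68 ± 2.08, adjusted p = 0.31), with the value of TENA2483 carried by 1 pool. The basement membrane chain Col4a1 was 0, 0.0651 and 289 CPM against 85.7 to 399 CPM (−0.14 ± 2.49), the high P15 value being the pool of TENA2524.

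The P05 sum of TENA2517 was at or near 0 for Col1a2, Col3a1, Dcn, Postn and Mfap5, and fibroblast markers were thus nearly absent from the P05 pools of 1 of the 3 paired animals. The proteoglycan and crosslinking list (13 genes, median −3.47), the matricellular list (11 genes, −1.87), the mesenchymal list (13 genes, −3.19), the fibroblast markers (12 genes, −8.19) and the EMT transcription factors (10 genes, −6.88) held 0 called genes each. With bounds the medians of the fibroblast markers and the EMT transcription factors were −7.07 and −5.77, and in the fit on the 3 paired animals alone they were −0.83 and −2.21. Vim, the intermediate filament of mesenchymal cells and of leukocytes, was 353, 769 and 0 CPM in P15 and 465 to 1434 CPM in P05 (−2.27 ± 1.63). Zeb2, an EMT repressor that macrophages also express, was 14.7, 86.3 and 0 against 18.1 to 120 CPM (−1.32 ± 2.08), and Snai2 and Twist2 had 0 counts in P15 and were at most 13.1 and 19.0 CPM in P05. Tnc itself, whose promoter drives the Cre, was 67.6, 0 and 0 CPM in P15 and 33.6, 68.5, 0.0947, 131 and 8.60 CPM in P05, held by 1 and 8 pools (−1.87 ± 2.54, adjusted p = 0.943). Cdh2 was at most 2.93 CPM in P15 and 10.4 CPM in P05.

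**Figure D3:**
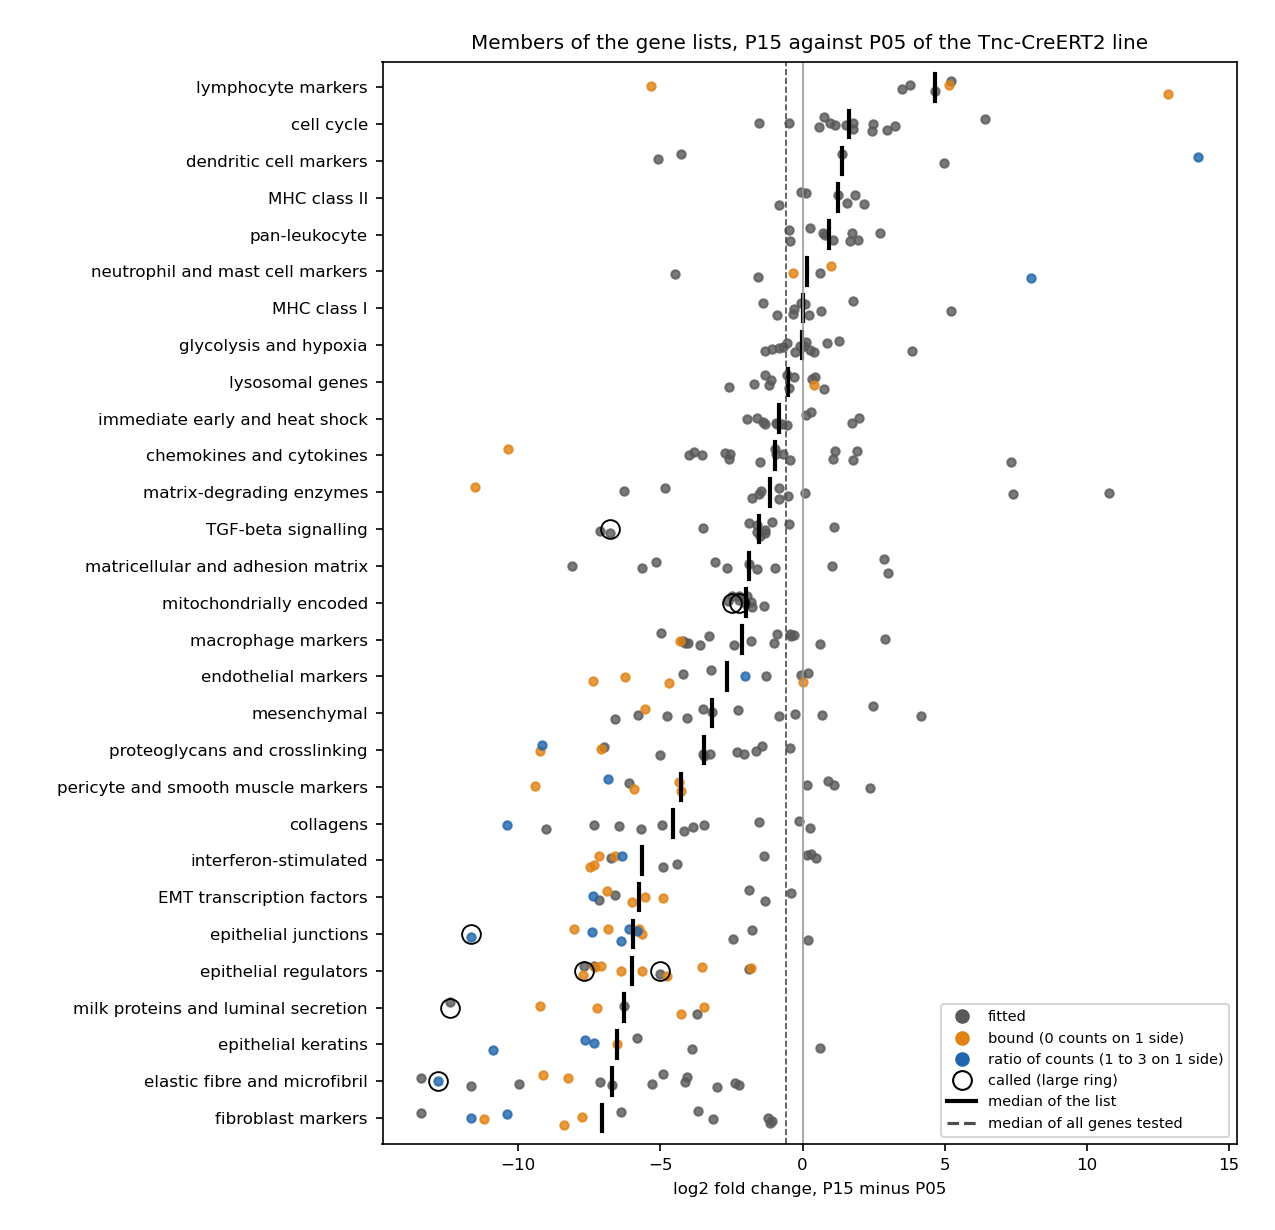
Log2 difference (P15 minus P05) of each member of the 29 gene lists, with colours for fitted values, bounds and ratios of counts, rings around called genes and a bar at the median of each list with bounds included. The dashed line is the median of all genes, −0.58, and epithelial, elastic fibre and fibroblast lists lie left of it while lymphocyte and cell cycle lists lie right of it.

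Genes of the mitochondrial genome were lower in P15 as a group of small but regular differences. mt-Nd1, a subunit of respiratory complex I (chrM:2751-3707), was 839, 1017 and 371 CPM in P15. In P05 it was 3247, 3308, 3239, 7451 and 3242 CPM. Every P05 sum was above every P15 sum, and mt-Nd1 fell by 2.48 ± 0.50 (edgeR, adjusted p = 0.0289). mt-Nd4 was 512, 894 and 310 against 1956, 1977, 2453, 4612 and 1567 CPM and fell by 2.24 ± 0.47 (adjusted p = 0.0417). Without TENA2524 their differences were −1.80 and −1.65, with adjusted p-values of 0.213 and 0.219. The nuclear copies Gm10925 (−2.17 ± 0.44, adjusted p = 0.033) and Gm28661 (−2.19 ± 0.47, adjusted p = 0.0496), which share sequence with mitochondrial genes, were called too, and reads of such copies cannot be separated with certainty.

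Of the 9 mitochondrial genes 9 lay below 0 in all 3 paired animals (7.36% of all genes did), 9 had an unadjusted p below 0.05 (7.11%), 5 did not overlap (2.03%) and 2 were called (0.121%), with a median of −1.98. The share of counts was taken over all genes of the mitochondrial genome, of which these 9 are a part. It was 1.15%, 2.33% and 0.975% in P15 and 2.74%, 2.42%, 4.92%, 4.30% and 3.64% in P05. No P15 sum reached the lowest P05 sum, and the means were 1.49 ± 0.739% (SD, n = 3) and 3.60 ± 1.04% (SD, n = 5), a difference of −2.12 percentage points (exact permutation test, two-sided, p = 0.0357, the smallest that 3 against 5 allows). This test treats the 8 sums as separate although 3 animals gave both populations. In the 3 paired animals alone the difference was −2.39 points (exact permutation p = 0.1, the smallest that 3 against 3 allows). By pool the ranges overlapped, from 0.489% to 4.68% in P15 (median 1.40%) and from 1.54% to 9.51% in P05 (median 3.17%). The 7 P05 pools with Ptprc had a median of 3.08%, those with Krt8 3.88% and those with Col1a1 2.07%. Without the 7 Ptprc pools of P05 the difference was −2.08 points (exact permutation p = 0.0714). The median number of genes per pool, a sign of RNA content and quality, averaged 6431 ± 2009 in P15 animals and 7587 ± 1171 in P05 animals (exact permutation p = 0.429), and its part in the result was not tested.

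**Figure D4:**
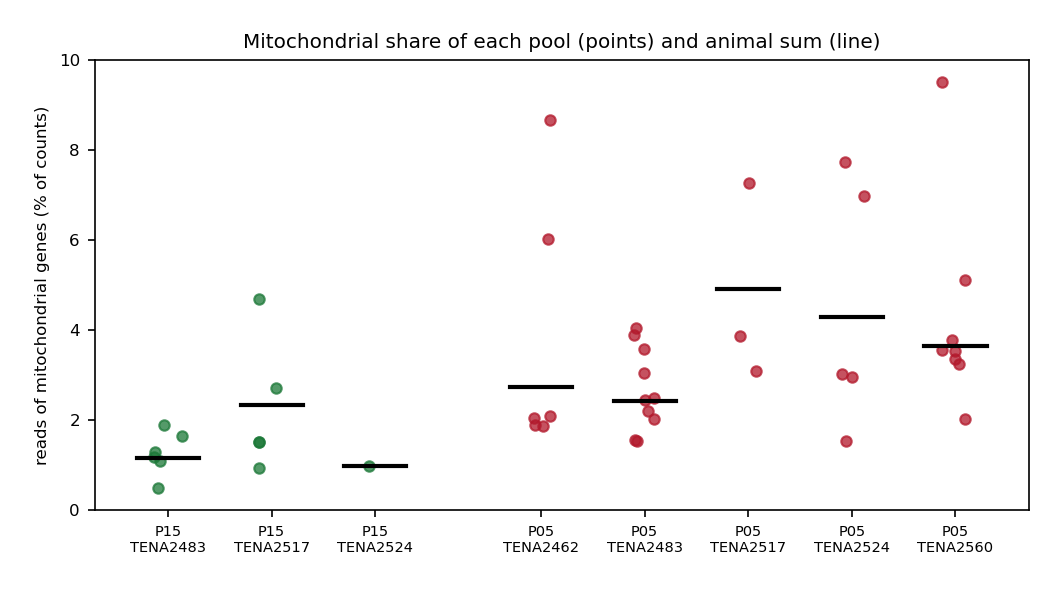
Share of counts from all genes of the mitochondrial genome, in percent, for each pool (points) and each animal's sum (line), by gate and animal. The P15 sums lie at 0.975% to 2.33% and the P05 sums at 2.42% to 4.92%, while single pools overlap.

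Of the 5 genes that rose in P15, 4 had their highest level by far in the single pool of TENA2524. Rbm15, an RNA-binding protein that guides m6A methylation of RNA (chr3:107325421-107333673), was 34.4, 31.1 and 1533 CPM in P15. Its levels in P05 were 8.23, 9.50, 17.9, 6.43 and 16.5 CPM. The groups did not overlap (0.29% of all genes did so in this direction), and Rbm15 rose by 5.88 ± 1.01 (edgeR, adjusted p = 0.00832). Without that pool the difference was 1.61 (adjusted p = 0.475). Nmt1, an N-myristoyltransferase, was 43.0, 212 and 3107 CPM against 15.6 to 69.7 CPM and overlapped (4.51 ± 0.81, adjusted p = 0.014), and without the pool the difference was 1.40 (adjusted p = 0.497).

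Hnrnpa1, a splicing factor, was 57.0, 42.4 and 1616 CPM against 13.4 to 71.9 CPM (3.87 ± 0.83, adjusted p = 0.0481), and its log2 difference was 0.40 without that pool (adjusted p = 0.973). The processed pseudogene Gm7600 was 82.9, 82.0 and 3255 CPM against 34.4 to 67.1 CPM without overlap (3.93 ± 0.74, adjusted p = 0.02, 0.632 without the pool). Gm10434, another pseudogene, was 6.00, 16.6 and 0 CPM against at most 0.0996 CPM and was the only called gene of this direction not at its highest in TENA2524 (7.50 ± 1.49, adjusted p = 0.0261, 0.0217 without the pool). Its adjusted p was 0.087 to 0.189 without each of the 5 animals in turn, so the call was lost in each of these fits. Reads of pseudogenes may be shared with the genes they were copied from.

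Further genes higher in P15 in 3 of 3 paired animals (1.46% of all genes) did not pass the test. Slc25a13, a mitochondrial aspartate-glutamate carrier, was 19.1, 26.3 and 104 CPM against 0 to 2.57 CPM (7.07 ± 1.68, adjusted p = 0.0841). Bmp2k, a kinase named for its induction by BMP2, was 26.6, 116 and 1117 CPM against 3.55 to 17.1 CPM (5.26 ± 1.40, adjusted p = 0.136) and was held by 11 of 12 P15 and 8 of 32 P05 pools. Rsrp1 was 276, 410 and 2828 against 42.1 to 298 CPM, with overlap (adjusted p = 0.0827). Again the P15 value of TENA2524 was the highest for each of these, though not for every gene of this kind. Gm6944 and Gm7560, also higher in all 3 paired animals, were highest in TENA2483 and TENA2517.

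Leukocyte genes, present in every P15 pool, were not called as higher in P15. Of the 10 pan-leukocyte genes 0 were called, 8 lay above 0 (13114 of all 33768 genes tested did), and the median was 0.93 (−0.66 without TENA2517). Ptprc was 148, 265 and 9.63 CPM in P15 and 0.147, 107, 112, 205 and 0 CPM in P05 (0.27 ± 12.56). The 2 P05 sums near 0 were TENA2462 and TENA2560, the animals without P15 pools, while P05 lay below P15 in TENA2483 and TENA2517 and above it in TENA2524. Coro1a, an actin regulator of leukocytes, was 536, 785 and 0 CPM against 0, 230, 240, 591 and 2.42 CPM (1.07 ± 1.91). Ptprc was thus held by 12 of 12 against 7 of 32 pools while its sums within the paired animals showed no called difference.

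Of 16 macrophage genes 0 were called, with a median of −2.12 that became 2.32 without the Ptprc pools of P05. All 7 of those pools also held C1qa, so that leaving them out partly fixes this value. Apoe was 664, 17180 and 10100 CPM in P15 and 0 to 36390 CPM in P05, and Csf1r was 37.8, 1263 and 1292 against 17.2 to 553 CPM (−0.31 ± 1.72). Of 7 MHC class II genes 0 were called. Their median of 1.25 lay below 0 on the P15 and P05 sums alone (−0.04), in the 3 paired animals alone (−0.06) and without TENA2517 (−0.21), and it was 6.09 without the Ptprc pools of P05. Cd74, the invariant chain, was 7763, 6612 and 0 CPM in P15 and 0, 7371, 3138, 6616 and 43.8 CPM in P05 (−0.84 ± 3.23). Cd74 was thus high in P05 of all 3 paired animals, at 0 in the P15 pool of TENA2524, and at or near 0 in the 2 unpaired animals.

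Of 11 lymphocyte genes tested 0 were called and 10 lay above 0 (median 3.51), as did 13114 of all 33768 genes tested. However, 4 of the 11 had 0 counts in P15, and only 7 had more than 3 counts in either gate. The signs of the others rest on almost no reads. Cd79a was 616, 0 and 0 CPM in P15 and at most 3.09 CPM in P05, with a fitted difference of 3.51 ± 8.00. Of 14 cell cycle genes 12 lay above 0, 0 were called and the median was 1.65. At an unadjusted p below 0.05, 1 of them (Mcm3) was higher, where 3.16% of all genes were. Top2a, the topoisomerase of dividing cells, was 198, 29.8 and 0 CPM against 3.46 to 21.1 CPM (1.76 ± 1.89), and Mcm3, of the replicative helicase, was 216, 10.9 and 230 against 0 to 23.4 CPM (6.42 ± 2.72, adjusted p = 0.395). Top2a was highest in TENA2483, the animal with B cell genes in all 6 P15 pools, and their part in the cell cycle values was not tested.

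Secreted factors and proteases were patchy. Of 17 chemokine and cytokine genes 0 were called, and the median of −0.98 turned above 0 in limma voom, without the animal block and without the Ptprc pools of P05 (1.49). Ccl4, a macrophage chemokine, was 5.44, 2350 and 0 CPM against 0.367 to 447 CPM, and Ccl2, which attracts monocytes, was 38.7, 34.8 and 0 against 32.0 to 2384 CPM. Of 12 matrix-degrading enzymes 0 were called (median −1.14), and Mmp13, a collagenase, was 3288, 0.0651 and 0 CPM in P15 with 1 pool of TENA2483 giving nearly all of it, against 0 to 11.5 CPM. Glycolysis genes showed a median of −0.02 over 14 genes with 0 called, and Ldha was 633, 686 and 59.4 against 191 to 548 CPM (0.25 ± 0.63).

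In the Cdh2-CreERT2 line, whose Cre is driven by Cdh2, P15 came from 3 animals and P05 from 1, so that its contrast borrows its spread from the joint fit. edgeR's quasi-likelihood test called 0 genes there (0% of 33768, with 467 at an unadjusted p below 0.05). It also called 0 genes for the difference between the lines (0%, 1108 at an unadjusted p below 0.05). Of the 41 genes that fell in the Tnc-CreERT2 line 14 lay below 0 in the Cdh2-CreERT2 line, and of the 5 that rose 2 lay above 0. The share of all genes on each side of 0 in that line was not counted, so these counts do not set the genes apart.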

How the data were processed

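Pools of 5 sorted cells were measured by Smart-seq2 RNA-seq. The deposited values are counts of reads per gene, whole numbers that were not normalized; the submitters' processing notes name STAR, SAMtools, featureCounts, Subread and the build mm10, with versions and the strand setting not given in the sources used here. All 55450 identifiers matched GENCODE M21 (GRCm38). No library was identical to another. Members and gene lists were chosen with earlier results of these data known.

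Counts of pools that passed quality control were summed per animal and population over both lines (43 sums). edgeR 4.0.16 (R 4.3.3, limma 3.58.1) was run with TMM factors (0.5696 to 2.528), filterByExpr by group, robust quasi-likelihood fits with the animal as a block and 24 residual degrees of freedom, and Benjamini-Hochberg adjustment over 33768 genes. The steps were tested on simulated data. The pairing comes from the labels, which name the mouse of each pool; TENA2462 and TENA2560 enter through P05 and their other populations. CPM of genes in sums use TMM-scaled totals, while CPM of pools and summed marker levels use plain totals. Pool totals (508631 to 7293999 counts) set the floors.

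Named were up to 15 called genes per direction by lowest p; where fewer were called, up to 10 genes of lowest p with the same sign in the 3 paired animals; the 4 most abundant members of each list; and 11 fixed genes. The other genes named (Aqp5, the TGF-beta ligands, Ltbp1, Ltbp2, Ltbp4, Cldn7, Col4a1, Esrp1, Snai2, Twist2, the caseins, genes named for a promoter motif, Gstt3 and the mitochondrial pseudogenes) were chosen after their values were seen. Alternatives changed the scaling (RLE), the filter, the tool (DESeq2 1.42.0, limma voom), the block, the samples in the fit, the quality control, the weight of libraries and the P05 pools with Ptprc or Krt8. Leaving out the P15 pool of TENA2524 was added after seeing the data. Reporter and Cre transcripts were not analysed here, and some genes are not reported here.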

Additional observations from a re-analysis of the deposited data

Results flagged for a closer look

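In 7 genes, 1 of the 5 P05 sums stood far from the other 4 on the log2(CPM + 1) scale. The test was run on 63 named genes, and chance alone flags about 1 group in 20. Cracr2b was 0.133 CPM in P05 of TENA2560, against 17.6 to 23.5 CPM in the others. Eln was 0.0947 CPM in P05 of TENA2517, against 393 to 1013 CPM. Rsrp1 was 42.1 CPM in P05 of TENA2524, where the other 4 lay between 174 and 298 CPM.

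The other 4 were all high values in P05 of TENA2524: mt-Nd1 at 7451 CPM, mt-Co1 at 13550 CPM, mt-Nd5 at 2765 CPM and the nuclear copy Gm28661 at 8496 CPM. These levels use TMM-scaled totals, and that sum had the lowest TMM factor of the 43 sums (0.570). On plain totals its mitochondrial share was 4.30%, below the 4.92% of TENA2517 in P05. The pools of TENA2524 were in lane 2 and those of the other 4 animals in lane 1. The parts of the scaling and of the lane were not tested.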

How the results depend on the processing

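The count of genes called moved with most settings. Against 41 lower and 5 higher, there were 61 and 20 with RLE scaling, 36 and 4 with no filter on low counts, 141 and 21 with a stricter filter, 3761 and 928 in DESeq2, 132 and 52 in limma voom with quality weights, 88 and 24 on the Tnc-CreERT2 line only, 88 and 2 with all libraries, 59 and 3 with libraries weighted equally, 83 and 13 with sums of at least 3 libraries, and 42 and 8 without the Ptprc pools of P05. Without the animal block there were 154 and 57, with all 46 shared. Fits on P15 and P05 alone, on the 3 paired animals alone (243 lower and 27 higher at an unadjusted p below 0.05) and without the Krt8 pools of P05 called 0 in edgeR. Without the P15 pool of TENA2524, chosen after seeing the data, there were 18 and 1. Leaving out 1 animal gave 2 to 108 lower and 0 to 17 higher, with the fewest lower without TENA2524, 0 higher without TENA2462 and TENA2560, and the most of both without TENA2483. The cause of these shifts was not tested. DESeq2 shared all 46 calls, and voom 25 of the 41 and 1 of the 5; the median of all genes was −0.58 with TMM and RLE, −0.10 in DESeq2 and 0.04 in voom.

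Of 1247 recomputed values of 63 named genes, 800 kept direction and side of the threshold, 392 kept direction but no longer passed it, 2 changed sign, and the rest kept direction and newly passed it. Both sign changes came with all libraries whatever the quality control, with Cracr2b at 1.73 and Gm5327 at −0.33. The mitochondrial share difference of −2.12 points was −4.59 with all libraries (exact permutation p = 0.1111), −1.86 with sums of at least 3 libraries (0.0952), −2.08 without the Ptprc pools (0.0714), −2.39 in the 3 paired animals (0.1) and −2.33 to −1.69 without 1 animal (0.0571 to 0.1333, the smallest these designs allow). Depth limits P15 most in TENA2524, with 508631 counts.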

Other observations

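Stress genes were abundant in both gates and varied widely within each. Of 12 immediate early and heat shock genes 0 were called and the median log2 difference was −0.81, against −0.58 for all genes. The chaperone gene Hspa1a was 84.8, 4435 and 295 CPM in P15 of TENA2483, TENA2517 and TENA2524 and 146 to 1254 CPM in P05 (1.74 ± 1.73). Fos was 706, 1835 and 0 CPM in P15 and 711 to 3129 CPM in P05 (−0.73 ± 1.17).

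MHC class I genes overlapped between the gates in 10 of 10, with 0 called and a median of 0.02. B2m was 875, 2452 and 3058 CPM in P15 and 868 to 1989 CPM in P05 (0.65 ± 0.63), and the immunoproteasome subunit gene Psmb8 was 233, 329 and 822 against 16.2 to 243 CPM (1.77 ± 0.84, edgeR adjusted p = 0.463). Of 12 interferon-stimulated genes 0 were called, and Ifit1, Ifit2 and Ifit3 had 0 counts in P15 and were listed above 0 in P05 of TENA2483 only, at 50.2, 29.6 and 55.4 CPM.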
